A study of Mus musculus with 6 samples.

Results

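S100 proteins and annexins are 2 families of calcium-responsive proteins, many of which dock onto membranes or onto each other. Measured here were 10 of their genes, S100a1, S100a4, S100a6, S100a10, S100a11, S100a13, Anxa1, Anxa2, Anxa4 and Anxa5. They were chosen by symbol, with earlier results of these data known, and all were present among the 19233 genes of the deposited table. The RNA came from polysome fractions, the part of an extract in which an mRNA carries several ribosomes, of RAW264.7 cells, a mouse macrophage-like line transformed by Abelson leukaemia virus. All 6 libraries are titled M2, the alternatively activated state. In 3 of them the cells had received BMH-21, an intercalating small molecule that inhibits RNA polymerase I, at 500 nM for 24 h starting 24 h after polarization, and in 3 the solvent DMSO. The comparison asks how the polysomal mRNAs of such cells differ with BMH-21, and these values do not measure ribosomal RNA synthesis. The labels describe polarization, with IL-4 (20 ng/ml) as one of the stimuli, only for macrophages grown from bone marrow, so the agent that polarized the line itself is not settled by them. A polysome value combines how much of an mRNA a cell holds with how much of it is loaded with ribosomes, and these were not separated. The libraries are bulk, so a lower value cannot tell fewer cells expressing a gene from less RNA per cell.

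S100 proteins are small dimers built from EF-hands, the helix-loop-helix motif that holds calcium. Calcium opens a hydrophobic patch on the dimer that grips a partner, often the tail of an annexin or a myosin. Annexins bind acidic phospholipids when calcium rises, and in macrophages they act in membrane repair, phagocytosis, vesicle traffic, the handling of plasminogen at the cell surface and the resolution of inflammation. S100A10 is the exception among the S100 proteins in that it no longer binds calcium and sits constitutively on annexin A2.

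All 6 S100 members lie on chromosome 3. In GENCODE M21 on GRCm38, S100a1 (90511034 to 90514392, minus strand), S100a13 (90514435 to 90524581), S100a4 (90603771 to 90606045) and S100a6 (90612882 to 90624181) form one block, and S100a11 (93520488 to 93526287) with S100a10 (93555080 to 93564643) a further one 2896306 bases downstream. The annexins are dispersed: Anxa5 is also on chromosome 3 (36448923 to 36475894), Anxa1 on chromosome 19 (20373428 to 20390944), Anxa2 on chromosome 9 (69453620 to 69491795) and Anxa4 on chromosome 6 (86736840 to 86793584). Each value is for a whole gene and says nothing of single exons or untranslated regions.

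Promoter sequence is shown for the members with the largest rises, S100a11 and S100a4, for Anxa2, the member with the largest fall, and for the stretch that S100a1 and S100a13 share. The 250 bases before each RefSeq start (GRCm38.p6) were searched on both strands for 4 motifs. These were the TATA box, spelled TATAAA, the GC box, spelled GGGCGG, the AP-1 motif, with the letters TGANTCA, and the STAT6 motif, with the letters TTCNNNNGAA. Capitals mark a match, and 9 of the 10 members had an entry.
S100a11, chr3:93520246-93520495, plus strand: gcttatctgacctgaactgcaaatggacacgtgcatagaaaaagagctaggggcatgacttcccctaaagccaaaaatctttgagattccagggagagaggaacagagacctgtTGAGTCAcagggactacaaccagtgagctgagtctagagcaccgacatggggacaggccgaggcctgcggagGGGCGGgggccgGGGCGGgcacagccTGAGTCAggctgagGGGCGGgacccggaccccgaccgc
S100a4, chr3:90603520-90603769, plus strand: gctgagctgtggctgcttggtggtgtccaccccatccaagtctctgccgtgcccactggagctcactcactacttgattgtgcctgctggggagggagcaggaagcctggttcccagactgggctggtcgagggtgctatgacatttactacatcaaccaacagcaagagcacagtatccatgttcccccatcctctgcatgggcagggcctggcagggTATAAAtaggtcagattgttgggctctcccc
Anxa2, chr9:69453433-69453682, plus strand: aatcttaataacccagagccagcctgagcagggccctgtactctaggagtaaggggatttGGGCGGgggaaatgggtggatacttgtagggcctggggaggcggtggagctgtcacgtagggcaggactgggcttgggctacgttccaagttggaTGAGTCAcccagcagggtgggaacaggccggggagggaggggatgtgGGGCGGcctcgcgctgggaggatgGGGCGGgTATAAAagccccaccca
Between the S100a1 and S100a13 starts, chr3:90514331-90514434, plus strand: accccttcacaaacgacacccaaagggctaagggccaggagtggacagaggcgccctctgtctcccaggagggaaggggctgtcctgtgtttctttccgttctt

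The S100a11 window holds 3 GC boxes and 2 AP-1 matches and no TATA box. S100a4 has a single TATA box, whose first base is at position -31 from the start, and no other match. The Anxa2 window carries 3 GC boxes, 1 AP-1 match and a TATA box, whose first base is at position -17 from the RefSeq start. S100a1 and S100a13 are transcribed away from each other from RefSeq starts with 104 bases between them, of which 58.7% are G or C, without a TATA or GC box. The GENCODE models of the 2 genes leave 42 bases between them, so the 2 sources place the starts differently. Of the 9 members with an entry, 3 had a TATA box (Anxa1 is the other one), 2 a GC box, 2 an AP-1 match and 0 a STAT6 match. Over all 32851 windows of the same length, 12.4% held a TATA box, 32.7% a GC box, 6.75% an AP-1 match and 5.85% a STAT6 match. A match is a run of letters, not a measured binding site, and the part of these matches in the members' changes was not tested.

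The libraries were even in depth and one feature set some apart. From the steps between low values the depth came to 21610000 to 24070000 reads with DMSO and 18770000 to 22560000 reads with BMH-21, and log2 values correlated across genes at 0.997 to 0.9978 within a group and at 0.9627 to 0.964 between groups. Of 10 macrophage markers in the table (such as Cd68, Csf1r, Spi1 and Lyz2), 9 reached 1 FPKM in all 6 libraries, the exception being Mrc1, and their summed level was 10834 to 11232 FPKM with DMSO and 18649 to 19859 FPKM with BMH-21, most of it Lyz2. Singly the 10 markers divided as deposited, 6 higher (Lyz2, Cd14, Itgam, Spi1, Fcgr3 and Cd68) and 4 lower, among them Adgre1, from 40.7 ± 1.3 to 22.7 ± 0.52 FPKM. Of 19 listed markers of other cell types, 10 were in the table and 0 reached 1 FPKM in all 6 libraries, with a summed level of 0.457 to 9.83 FPKM in DMSO and 10.9 to 14.3 FPKM in BMH-21. In DMSO replicate 3 and the BMH-21 libraries most of that sum was 2 epithelial keratins, and in DMSO replicates 1 and 2 it was Hba-a1, a haemoglobin gene, at 0.307 and 0.570 FPKM. Krt18 was listed at 0, 0.0644 and 5.47 FPKM in DMSO replicates 1, 2 and 3 and at 8.89, 6.41 and 8.09 FPKM with BMH-21. Krt8 was at 0, 0.0236 and 3.27 FPKM and at 4.22, 3.60 and 3.78 FPKM in the same order, and Epcam was listed at 0 in DMSO replicates 1 and 2 and at 0.388 to 0.635 FPKM in the other 4 libraries. DMSO replicate 3, the control with keratin values near those of BMH-21, was below both other controls for 5 of the 6 S100 members and between them for S100a10. For Anxa1, Anxa2 and Anxa5 it was above them and for Anxa4 between them. Without it the 10 members kept their direction and call (8 higher, 2 lower), and beyond this the part of the keratin signal in the members' changes was not tested.

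With BMH-21 all 6 S100 members were higher and the annexins divided, Anxa1 and Anxa5 higher and Anxa2 and Anxa4 lower, with quantile normalization turning S100a4 to lower and median-ratio and upper-quartile scaling moving Anxa4 to about 0. Levels are FPKM, which corrects a fragment count for the length of the transcript and the size of the library, and changes are BMH-21 minus DMSO on the log2(FPKM + 1) scale, tested by limma with Benjamini-Hochberg adjustment at 0.05 over all 9748 genes that reached 1 FPKM in at least 3 samples. All 10 members passed that filter and all 10 were called, 8 higher and 2 lower. Among all tested genes 78.3% were called, 19.9% higher and 58.4% lower, so a call by itself says little. The 2 falls had the direction of most genes. That of Anxa4 was about the median of all genes, while for Anxa2 only 13.8% of tested genes had a lower change. In all 10 members the groups did not overlap, as in 79.8% of all tested genes. The median change of the members was 0.35 and that of all tested genes -0.23. For the 6 S100 members the median was 0.53 and for the 4 annexins -0.03.

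**Figure D1:**
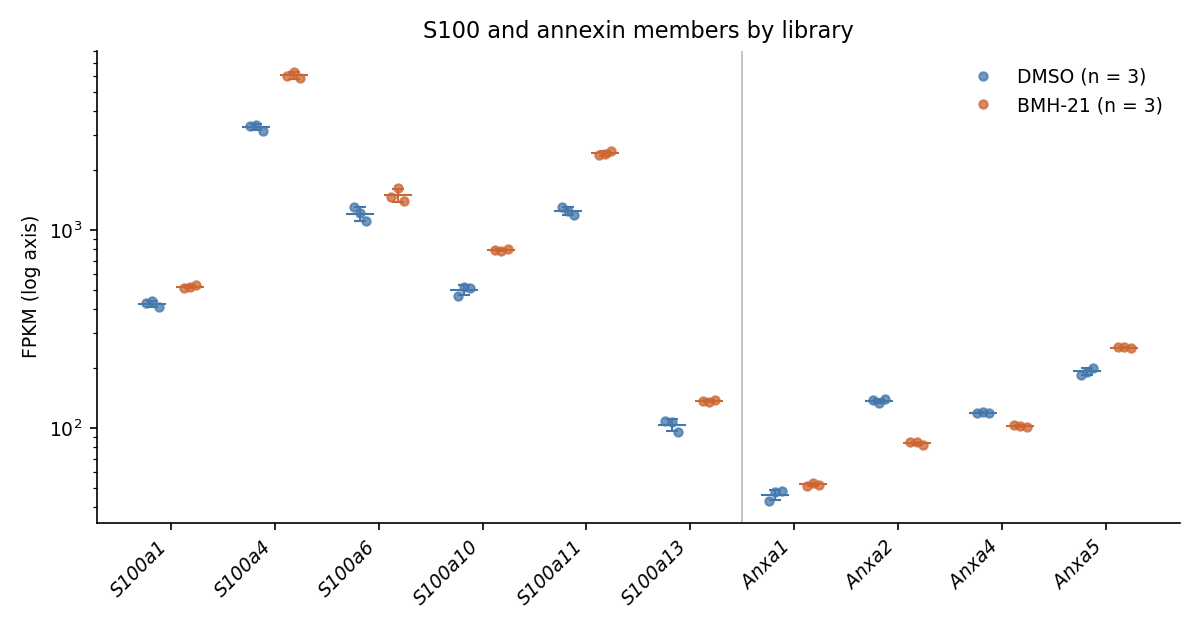
FPKM on a log axis for each member in 3 DMSO (blue) and 3 BMH-21 (orange) libraries, with points for libraries, a dash for the mean and bars for the SD. The S100 members, left of the grey line, are higher with BMH-21 as deposited (S100a4 is lower with quantile normalization), from 3298 to 6031 FPKM for S100a4, while Anxa2 goes from 137 to 83.8 FPKM.

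S100a4, or metastasin, binds the heavy chain of non-muscle myosin and is known for promoting cell motility. It was at 3359, 3368 and 3167 FPKM in DMSO replicates 1 to 3 and at 6008, 6259.9 and 5826 FPKM with BMH-21. The 3 treated libraries lay close together and far above every control. S100a4 rose from 3298 ± 114 to 6031 ± 218 FPKM (SD, n = 3), a change of 0.87 ± 0.05 on the log2 scale (SE; limma adjusted p = 1.65e-07). It ranked 2 or 3 among all genes in each library. With quantile normalization, which assigns values by rank, its change was -0.35 (limma adjusted p = 2.74e-06), since its median rank was 2 with DMSO and 3 with BMH-21. S100a4 alone made up 0.968% ± 0.030 of the summed FPKM of a DMSO library and 1.63% ± 0.066 of a BMH-21 library (SD, n = 3).

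S100a11, or calgizzarin, binds annexin A1 and takes part in plasma membrane repair. Its values were 1299, 1245 and 1192 FPKM in DMSO replicates 1 to 3 and 2380.1, 2406 and 2513 FPKM with BMH-21. The lowest treated library was far above the highest control. S100a11 rose from 1245 ± 54 to 2433 ± 71 FPKM (SD, n = 3), a change of 0.97 ± 0.05 on the log2 scale (SE; limma adjusted p = 5.54e-08), and 98.3% of all tested genes had a lower change. Its smallest value under any scaling was 0.54, with quantile normalization.

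S100a10, also called p11, escorts annexin A2 to the plasma membrane and offers plasminogen a docking site. It was at 464, 515 and 511 FPKM in the DMSO libraries and at 789.8, 784 and 802 FPKM in the BMH-21 libraries. DMSO replicate 1 was the lowest control, and the treated libraries were nearly equal. S100a10 rose from 497 ± 29 to 792 ± 8.8 FPKM, a change of 0.67 ± 0.05 on the log2 scale (SE; limma adjusted p = 6.42e-07).

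S100a6, or calcyclin, binds the calcyclin-binding protein that links it to a ubiquitin ligase. S100a6 was at 1299.6, 1221 and 1109.9 FPKM with DMSO and at 1466, 1625 and 1401 FPKM with BMH-21. Its groups did not overlap, and the gap between them was about as wide as the SD of each. S100a6 rose from 1210.2 ± 95 to 1497 ± 115 FPKM, a change of 0.31 ± 0.07 on the log2 scale (SE; limma adjusted p = 0.00234), and the call was lost with quantile normalization (0.01, limma adjusted p = 0.914).

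The neighbours S100a1 and S100a13 had changes of about the size of that of S100a6. S100a1, best known from heart muscle where it tunes calcium cycling, was at 426, 436 and 409 FPKM with DMSO and at 507, 518 and 526 FPKM with BMH-21. S100a13, which helps export signal proteins that lack a secretion signal, such as FGF1 and interleukin-1 alpha, was at 108, 107 and 95.9 FPKM and at 136, 135 and 139 FPKM. In both genes DMSO replicate 3 was the lowest library and the treated libraries were tight. S100a1 rose by 0.29 ± 0.04 on the log2 scale (SE; limma adjusted p = 9.61e-05) and S100a13 by 0.39 ± 0.05 (limma adjusted p = 4.09e-05). The S100a1 change was 0.09 with quantile normalization.

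Among the annexins, Anxa5 was the most abundant. Annexin A5 binds phosphatidylserine and assembles into arrays over membrane tears, and it is the reagent used to stain dying cells. Anxa5 was at 185, 193 and 201 FPKM with DMSO and at 256, 255 and 253 FPKM with BMH-21. The controls were spread and the treated libraries almost identical. Anxa5 rose from 193 ± 8.1 to 255 ± 1.8 FPKM, a change of 0.40 ± 0.04 on the log2 scale (SE; limma adjusted p = 9.09e-06).

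Anxa2 moved the other way. Annexin A2 links membranes to actin and, with S100A10, gathers plasminogen and its activator on the surface. Anxa2 was at 138, 134 and 139.7 FPKM with DMSO and at 84.5, 85.0 and 82.0 FPKM with BMH-21, so the treated libraries were far below each control. It fell from 137 ± 3.0 to 83.8 ± 1.6 FPKM, a change of -0.71 ± 0.04 on the log2 scale (SE; limma adjusted p = 7.98e-08). Relative to the median of all genes the fall was smaller, at -0.47, and 13.8% of tested genes had a lower change.

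Anxa4 and Anxa1 changed least. Annexin A4 forms sheets on membranes and is best known from epithelia. Anxa4 was at 119, 120.3 and 119.7 FPKM with DMSO and at 103, 102 and 101 FPKM with BMH-21, very tight in both groups. It was called lower as deposited, at -0.23 ± 0.03 on the log2 scale (SE; limma adjusted p = 0.000168), which is the median of all genes to within 0.01, and the call was lost with median-ratio scaling (0.05) and upper-quartile scaling (0.01). Anxa1, which encodes a glucocorticoid-induced protein that dampens inflammation through a formyl peptide receptor, was at 42.8, 47.5 and 47.8 FPKM with DMSO and at 51.2, 53.0 and 51.5 FPKM with BMH-21. DMSO replicate 1 was low and the other controls came within 4 FPKM of the lowest treated library. Anxa1 rose by 0.17 ± 0.05 (limma adjusted p = 0.00827), a call lost when column totals were made equal (0.05, limma adjusted p = 0.364).

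The order of levels was S100a4, S100a11, S100a6, S100a10, S100a1, Anxa5, Anxa2, Anxa4, S100a13 and Anxa1 in the DMSO libraries. S100a11 and S100a6 were not separable there, at 1245 ± 54 and 1210.2 ± 95 FPKM, and the other neighbours in the order did not overlap. In the BMH-21 libraries S100a11 stood clear of S100a6, and S100a13 lay above Anxa4 and Anxa2. As shares of the 6 summed S100 members, S100a4 went from 48.7% ± 0.32 to 52.9% ± 0.77 and S100a11 from 18.4% ± 0.31 to 21.3% ± 0.98, while S100a6 went from 17.8% ± 0.79 to 13.1% ± 0.68 (SD, n = 3). The share of S100a10 was 7.34% ± 0.62 and 6.95% ± 0.24, a difference within the spread of the controls. Among the 4 summed annexins Anxa2 went from 27.7% ± 0.75 to 17.0% ± 0.17 and Anxa5 from 38.9% ± 0.70 to 51.7% ± 0.20. Shares within a family do not depend on the scaling factor of a library, and sum to a whole, so one share cannot move alone.

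Summed over the 6 S100 members the level was 6777 ± 256 FPKM with DMSO and 11407 ± 280 FPKM with BMH-21, or 1.99% ± 0.066 and 3.08% ± 0.084 of the column total. Summed over the 4 annexins it was 496 ± 12 and 492 ± 4.7 FPKM (SD, n = 3), a difference smaller than the spread of the controls. As a share of the column total the annexins were at 0.146% ± 0.0044 and 0.133% ± 0.0021, and on that scale the groups did not overlap. The sums are as deposited and were not computed with the other scalings. Median-ratio scaling put the change of each annexin member higher than as deposited, at 0.45 for Anxa1, -0.43 for Anxa2, 0.05 for Anxa4 and 0.68 for Anxa5.

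The partners S100A10 and annexin A2 diverged at the level of polysomal mRNA. The ratio of S100a10 to Anxa2 was 3.35, 3.84 and 3.66 in the DMSO libraries and 9.35, 9.23 and 9.78 in the BMH-21 libraries. Every treated library was above every control, and the log2 ratio differed by 1.39 (exact permutation test, two-sided, p = 0.1, the smallest p that 3 against 3 samples allow). The ratio of S100a11 to Anxa1, which encode another binding pair, was 30.4, 26.2 and 24.9 with DMSO and 46.5, 45.4 and 48.8 with BMH-21. It also separated the groups, by 0.79 on the log2 scale (exact permutation test, two-sided, p = 0.1, again the smallest possible). Ratios of unrelated genes were not computed as a background. Genes with up to 400 coding bases, as S100a10 and S100a11 have, had a median change of 0.24. Those with over 800 and up to 1600, as Anxa1 and Anxa2 have, had one of -0.28, so a divergence of this direction is not particular to binding pairs.

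**Figure D2:**
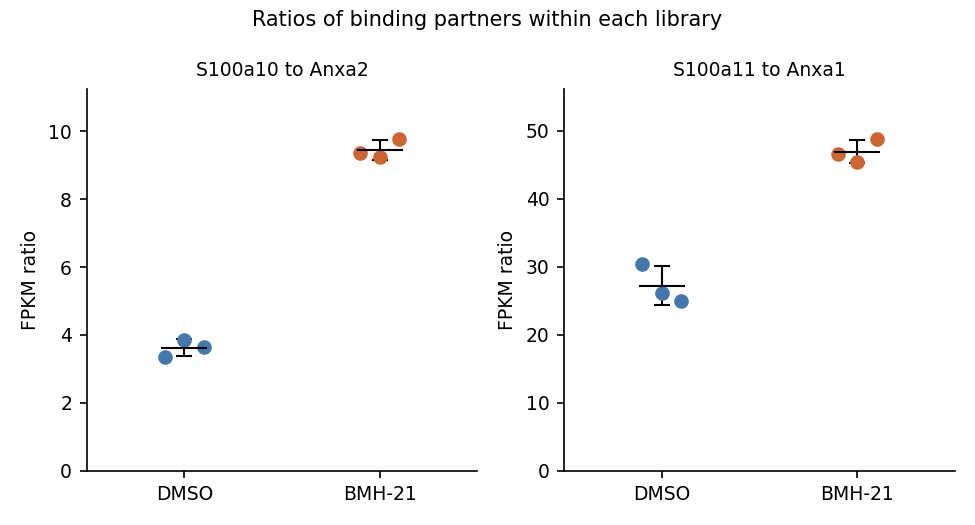
Ratio of FPKM values within each library for S100a10 to Anxa2 (left) and S100a11 to Anxa1 (right), with points for libraries, a dash for the mean and bars for the SD (n = 3 per group, axes from 0). The S100a10 to Anxa2 ratio is 3.62 ± 0.25 with DMSO and 9.45 ± 0.29 with BMH-21, and the S100a11 to Anxa1 ratio 27.2 ± 2.9 and 46.9 ± 1.7.

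How far the members moved rested on how the libraries were put on one scale. Median-ratio scaling moved the median of all genes by 0.23, upper-quartile scaling by 0.20 and quantile normalization by 0.24 on the log2 scale, and equal column totals moved it by -0.10. Called genes were 25.4% higher ones as deposited, and 50.7%, 46.3% and 50.1% of them after the median-ratio, upper-quartile and quantile steps in turn. The members' median above that of all genes was 0.58 as deposited, 0.56 to 0.63 with the 3 scalings by a factor, and 0.16 with quantile normalization. S100a10, S100a11, S100a13 and Anxa5 were called higher and Anxa2 lower under each of the 5 scalings. S100a1 was too, with values from 0.09 to 0.57.

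**Figure D3:**
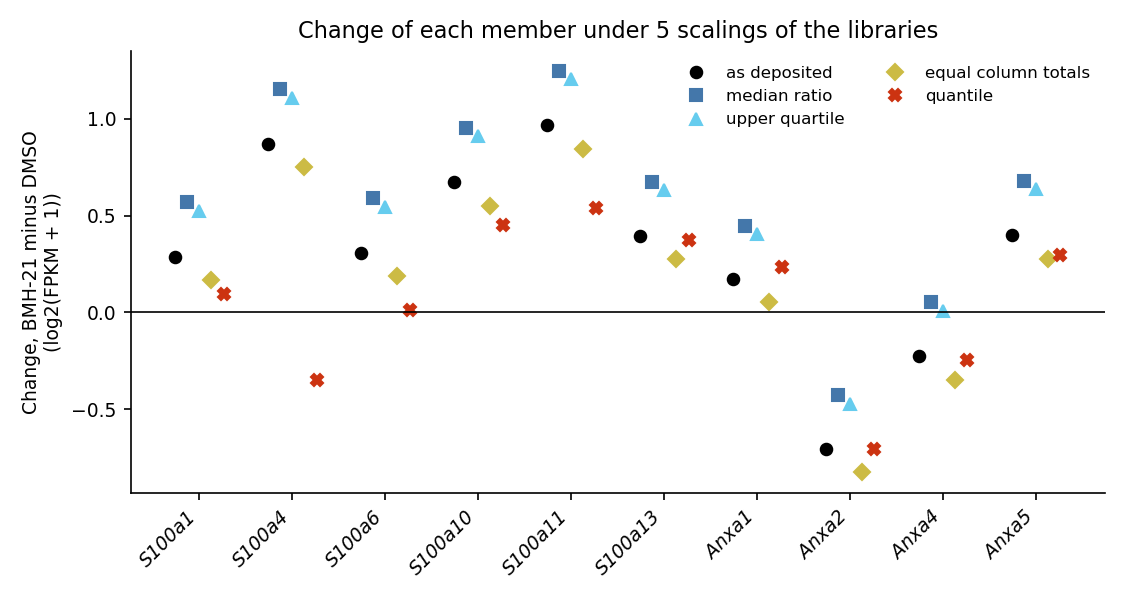
Change of each member (BMH-21 minus DMSO, log2(FPKM + 1)) with the values as deposited and after 4 other scalings of the libraries. S100a11 stays between 0.54 and 1.25 and Anxa2 between -0.83 and -0.43, S100a4 is at -0.35 with quantile normalization, and Anxa4 lies on either side of 0.

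No other S100 protein gene reached the level needed for a test, and most of the other tested annexins fell. Of 13 further S100-named genes listed, 8 were in the table and 7 of these stayed under the filter, at 0.384 FPKM or less in every library. S100a8, a subunit of the calprotectin of neutrophils and inflammatory monocytes, was among them, at 0.120 to 0.267 FPKM with DMSO and 0.319 to 0.384 FPKM with BMH-21. S100a16 was at 0 to 0.0820 FPKM and 0.149 to 0.329 FPKM, and like Epcam it was listed at 0 in DMSO replicates 1 and 2, as were S100a14 and S100a7a. The groups did not overlap in S100a8 and S100a16 and overlapped in the rest of the 7. All 7 lie near the floor and were not tested, and the share without overlap among all untested genes was not counted. S100pbp, which encodes a binding protein of S100P and not an S100 protein, fell from 3.11 to 2.59 FPKM (-0.20 ± 0.05, limma adjusted p = 0.00684), a change that was 0.01 with median-ratio scaling and 0.12 with quantile normalization. Of 8 further annexins listed, 5 were tested, 4 fell and 1 did not pass. Anxa6, which carries a doubled annexin core and acts at endosomes, fell from 10.8 ± 0.22 to 4.86 ± 0.40 FPKM, a change of -1.01 ± 0.06 on the log2 scale (SE; limma adjusted p = 1.17e-07). Anxa3 fell from 31.1 ± 1.3 to 21.9 ± 0.85 FPKM, Anxa7, also called synexin, from 10.4 ± 0.69 to 6.94 ± 0.21 FPKM, and Anxa11, which tethers RNA granules to lysosomes, from 4.90 ± 0.26 to 3.20 ± 0.18 FPKM. Anxa9 was at 4.62 ± 0.48 and 4.71 ± 0.28 FPKM (0.03, limma adjusted p = 0.733). Over all 9 tested annexins 6 fell and 2 rose with a median of -0.49, beside 58.4% lower genes and a median of -0.23 in the whole table.

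**Figure D4:**
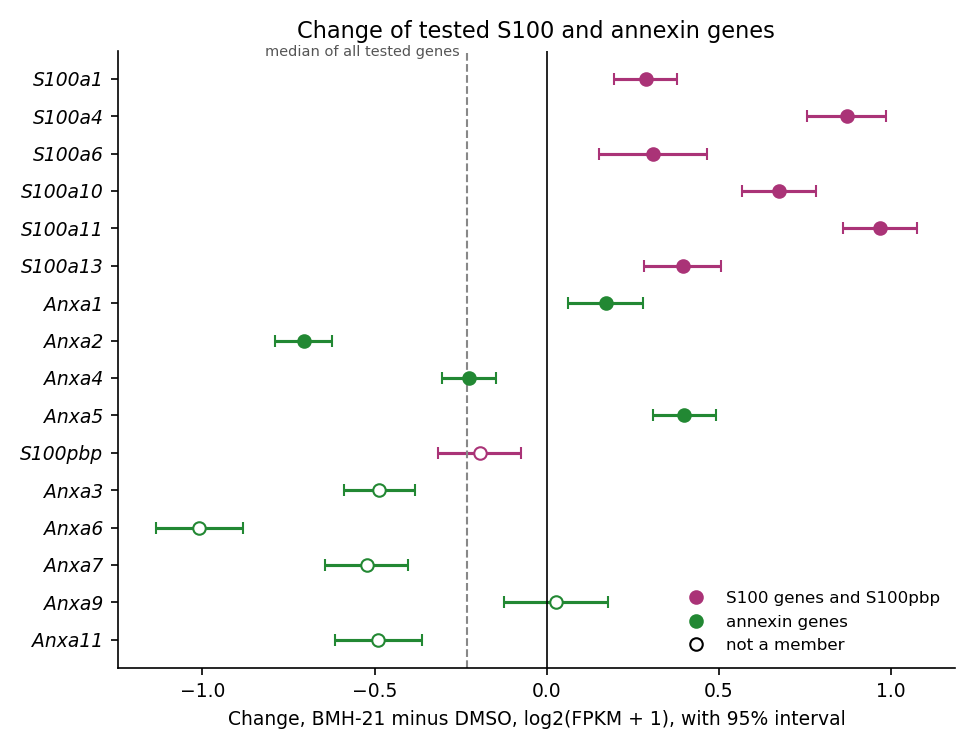
Change of each tested S100 or annexin gene (points; bars are 95% intervals from limma, n = 3 per group), members filled and other genes open, with a dashed line at the median of all tested genes, -0.23. The 6 S100 members lie right of 0 as deposited (S100a4 at -0.35 with quantile normalization), and of the annexins only Anxa5 and Anxa1 have intervals above 0.

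The S100 members have short coding sequences, and genes with short coding sequences were higher as a class. The longest annotated coding sequences of the S100 members were 267 to 303 bases, or 480 bases for S100a13, against 957 to 1038 bases for the annexin members. Of 497 tested genes with a coding sequence of up to 400 bases, 56.9% were higher and 19.7% lower, with a median change of 0.24. Of 3520 genes with over 800 and up to 1600 bases, the class of the annexin members, 16.4% were higher and 63.2% lower, with a median of -0.28. S100a1 and S100a6, at 0.29 and 0.31, were close to the median of their length class, while S100a10, S100a4 and S100a11 were at 0.67 to 0.97. S100a13, at 0.39, is in neither class. Anxa4 was close to its class median, Anxa2, at -0.71, was below it, and Anxa1 and Anxa5 were higher against a class in which most genes fell. These length classes were chosen after the values had been seen, and the part of coding length in the members' changes was not tested.

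**Figure D5:**
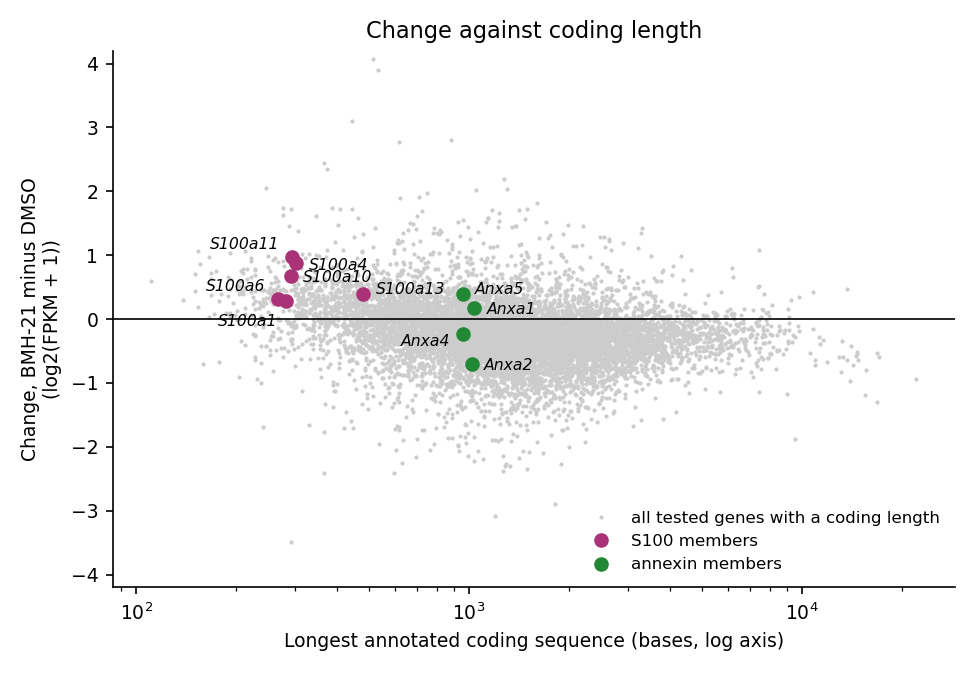
Change of every tested gene with an annotated coding length (grey; BMH-21 minus DMSO, log2(FPKM + 1)) against the length of its longest coding sequence in bases (log axis), with the S100 members in purple and the annexin members in green. The S100 members sit at 267 to 480 bases and the annexin members at 957 to 1038 bases.

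Few genes beside the S100 members were expressed enough to be tested. Within 100000 bases of the block from S100a1 to S100a6, 4 other genes were tested, a set taken by position after the values had been seen, and 3 were lower and 1 higher, beside 58.4% lower and 19.9% higher genes in the whole table. Near S100a11 and S100a10, 0 other genes were tested. Ilf2, an RNA-binding protein gene, was at 4.59 ± 0.19 and 1.55 ± 0.075 FPKM, Ints3, an Integrator subunit gene, at 6.87 ± 0.22 and 3.57 ± 0.19 FPKM, and Chtop, an mRNA export gene, at 56.1 ± 1.3 and 45.7 ± 1.1 FPKM. Snapin, next to Chtop, was at 29.3 ± 0.26 and 34.1 ± 1.3 FPKM. In the gap between S100a13 and S100a4, S100a14, S100a16 and S100a3 stayed at 0.329 FPKM or less. Gm42674, whose gene model overlaps S100a4, was at 0.19 ± 0.14 and 0.36 ± 0.11 FPKM, and how reads were divided between them is not given in the sources used here.

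The partners and pathways of these proteins were followed in 7 lists, with 74 tested genes, and their counts stand beside 19.9% higher and 58.4% lower genes in the whole table. The counts are as deposited. With median-ratio and upper-quartile scaling more of the listed genes were called higher than lower. Of 5 tested genes for plasminogen handling at the cell surface, 2 rose and 2 fell. Plau, urokinase, the activator that works beside the S100A10 and annexin A2 complex, rose from 7.51 ± 0.95 to 34.0 ± 3.1 FPKM (2.04 ± 0.09, limma adjusted p = 1.77e-08). Lrp1, an endocytic receptor that clears urokinase with its inhibitor, rose from 7.60 ± 0.36 to 10.97 ± 0.45 FPKM. The plasminogen receptors Plgrkt and Eno1 (a glycolytic enzyme in its main role) fell from 21.1 to 15.4 FPKM and from 93.7 to 62.9 FPKM.

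Among 13 tested genes of calcium-triggered membrane repair, 3 rose and 9 fell, with a median of -0.26. Ahnak, a giant scaffold that binds S100A10 and annexin A2, fell from 27.3 ± 0.78 to 17.7 ± 0.28 FPKM (-0.59 ± 0.04, limma adjusted p = 4.39e-07). Pdcd6, which encodes the calcium sensor ALG-2, rose from 57.8 to 70.1 FPKM. Lgals3, galectin-3, rose from 2019 to 2786 FPKM, a call lost with quantile normalization, and Vps4a, the ESCRT ATPase, fell from 37.2 to 30.5 FPKM, a call lost with median-ratio and upper-quartile scaling.

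Of 10 listed receptors for released S100 proteins and annexin A1, 5 were tested, of which 2 rose and 1 fell, and no formyl peptide receptor was among the tested ones. Cd14, the lipopolysaccharide co-receptor, rose from 359 ± 1.2 to 537 ± 6.6 FPKM, and Alcam, an adhesion molecule, from 7.37 ± 0.25 to 19.9 ± 0.29 FPKM. Tlr4, which signals for S100A8 and S100A9 as well as lipopolysaccharide, fell from 33.9 ± 1.4 to 26.3 ± 1.6 FPKM, a call lost with median-ratio (-0.09) and upper-quartile scaling (-0.13).

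Phosphatidylserine, the lipid that annexin A5 binds, is also read by engulfment receptors, and of 10 tested genes for its exposure and recognition 3 rose and 4 fell. Gas6, the bridge to the receptor MERTK, rose from 69.9 ± 1.8 to 111 ± 7.8 FPKM, and Havcr2, which encodes TIM-3, fell from 12.5 ± 1.1 to 6.49 ± 0.38 FPKM. Mfge8, another bridging protein, fell from 12.7 to 9.94 FPKM, a call lost with median-ratio, upper-quartile and quantile scaling. Cd300a, an inhibitory lipid receptor, rose from 46.3 to 49.9 FPKM, a call lost with the replicate block (limma adjusted p = 0.0563), when column totals were made equal (-0.01), and when any of 4 samples was left out, which were replicates 1 and 3 of each group (limma adjusted p = 0.054 to 0.0631).

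Of 12 tested intracellular partners of S100 proteins, 3 rose and 5 fell. Trp53, which encodes p53, a protein bound by several S100 proteins, fell from 16.3 ± 0.18 to 7.40 ± 0.90 FPKM (-1.05 ± 0.07, limma adjusted p = 3.41e-07), while Mdm2, its ubiquitin ligase, rose from 22.4 to 40.7 FPKM. The cytoskeletal GTPase gene Septin2 fell from 31.3 to 14.3 FPKM and the phosphatase gene Ppp5c from 42.2 to 28.1 FPKM. Of 9 tested genes of phospholipase A2 and eicosanoid synthesis, the pathway annexin A1 is known to restrain, 2 rose and 7 fell. Alox5ap, the helper protein of leukotriene synthesis, rose from 219 to 257 FPKM. Plaa fell from 11.5 to 6.78 FPKM, and Pla2g12a from 14.4 to 10.9 FPKM, the latter a call lost with median-ratio, upper-quartile and quantile scaling.

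Other EF-hand calcium sensors showed no common direction, 7 of 20 tested genes rising and 10 falling with a median of -0.10. Efhd2, an actin-binding EF-hand protein also called swiprosin-1, rose from 293 ± 11 to 449 ± 16 FPKM (0.62 ± 0.04, limma adjusted p = 7.38e-07). The secretory pathway proteins Rcn1 and Rcn2 diverged, Rcn1 rising from 12.3 to 19.2 FPKM and Rcn2 falling from 17.2 to 11.1 FPKM. Micu2, a gatekeeper of the mitochondrial calcium channel, fell from 34.5 to 24.7 FPKM.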

How the data were processed

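Polysomal RNA of 6 libraries was measured, and the authors deposited 1 table of normalised values, read here as FPKM because they are not whole and their low values step with transcript length; no label names the unit. Trimming with Trimmomatic 0.38 and the use of HISAT2, SAMtools and mm10 are recorded per the submitters' processing notes. How fragments were counted and which annotation served is not given in the sources used here. Oligo-dT enrichment is stated per the labels' protocols for every library, although DMSO replicate 2 is labelled polyA RNA and the others total RNA. An FPKM value is relative to its library, so changes in total RNA per cell are not measured.

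A pseudocount of 1 was added to the values before the log2 step. The 9748 genes that reached 1 FPKM in 3 or more samples were tested, BMH-21 against DMSO, with limma 3.58.1 (R 4.3.3, intensity trend) and Benjamini-Hochberg adjustment over all of them at 0.05. The code was tested on simulated data with few changed genes, equally many in each direction. That test does not cover the scaling of the libraries. Separate cultures are not stated for the replicates, so the p-values reflect the spread of these samples, which may be technical. Low values of single-transcript genes gave whole reads (within 0.01 of a read, over values implying more than 0.5 and up to 20 reads) for 75.6% to 77.6% of 1695 to 2051 genes per library. That gave the depths stated and was too few for a count model.

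Members and lists were chosen with earlier results of these data known. Named genes were all members, every other S100 or annexin gene past the filter and, of each further list, up to 4 called genes with a mean of at least 8 FPKM by ascending p. GENCODE M21 (GRCm38, the assembly of mm10) matched 97.4% of genes. The 16 alternatives covered pseudocounts, filters, scalings, the trend, a replicate block and leaving out each sample. Samples were not paired by replicate number in the main test.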

Additional observations from a re-analysis of the deposited data

How the results depend on the processing

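Of 160 values of the 10 members under 16 alternatives, 155 kept their direction and call. The other 5 were S100a4 at -0.35 and S100a6 at 0.011 with quantile normalization, Anxa1 at 0.052 with equal column totals, and Anxa4 at 0.053 with median-ratio and 0.0092 with upper-quartile scaling. Members called lower were then 1 with median-ratio scaling and 1 with upper-quartile scaling. Quantile normalization assigns values by rank, which is coarse for S100a4 at ranks 2 and 3, and otherwise the cause was not tested. Over all genes, calls were 3643 higher and 3546 lower with median-ratio scaling, 3349 higher with upper-quartile scaling (3883 lower), 3517 and 3498 with quantile normalization, and 5040 in all, 3465 of them lower, with a filter at 5 FPKM, which tests fewer genes. Over the 7 partner lists together, calls were 37 higher and 23 lower with median-ratio scaling and 36 and 23 with upper-quartile scaling. As deposited more of these genes fell than rose, so the balance of the lists turned with these scalings. Receptor genes called were 5 with quantile normalization, and phospholipase genes 4 with the filter at 5 FPKM.

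Of 509 values of other named genes 482 kept direction and call, 17 lost the call and 3 gained one. The 7 that turned sign were S100pbp (0.0128 with median-ratio scaling, 0.12 with quantile normalization), Cd300a (-0.0122 with equal column totals) and Anxa9, which was not called (-0.0737 with equal column totals, and from -0.0132 to 0.096 when a sample was left out, below 0 without DMSO replicate 2, without DMSO replicate 3 and without BMH-21 replicate 3). With the replicate block, 1894 genes were higher and 1 named gene, Cd300a, lost its call. Same-numbered samples did not deviate together (correlations -0.112, -0.094 and -0.064). With so few samples in a group, such values cannot tell whether same-numbered samples shared a culture or a batch. Leaving out a sample tests genes that reach 1 FPKM in 3 of the remaining samples.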
